A study of Homo sapiens with 6 samples.

Results

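H3K27ac, the acetylated lysine of histone H3 found at active promoters and enhancers, was mapped at 10 genes that restrain or report signalling through the RAS to ERK mitogen-activated protein kinase (MAPK) cascade. The genes were the ERK phosphatases DUSP4, DUSP5 and DUSP6, the Sprouty genes SPRY1, SPRY2 and SPRY4, the Sprouty-related genes SPRED1 and SPRED2, and the ETS transcription factors ETV4 and ETV5. They were chosen by name, with earlier results of these data known, from 20015 protein-coding genes of GENCODE version 44. Each was given a window of its body with 50 kb on each side. These 10 windows held 39 of the 30784 peaks in the list, and no peak fell in more than 1 window.

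The peaks came from SU-CCS-1 cells, a human line established from clear cell sarcoma (CCS) that carries EWSR1::ATF1, the fusion gene found in most CCS. The series held 3 H3K27ac chromatin immunoprecipitation (ChIP-seq) samples and 3 input samples, all from this 1 line with no treatment named in the labels, and no cells without the fusion. The authors deposited 1 merged peak list in hg38, with positions and names but no signal, read count or value per replicate. Widths and counts below therefore have no replicate error, no difference between genes could be tested against such an error, and a place without a peak was below the caller's cutoff or was filtered out.

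The MAPK cascade carries signals from growth factor receptors through RAS, RAF and MEK to the kinase ERK, which enters the nucleus and changes transcription. ERK activity raises transcription of its own inhibitors: DUSP phosphatases remove the activating phosphates from ERK, and Sprouty and SPRED proteins act higher up, between the receptor and RAF. ETV4 and ETV5 belong to the PEA3 group of ETS factors, which are induced by the same signal and in turn act on its target genes, so the whole set is commonly read as a gauge of ERK output.

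The line carried H3K27ac at most, but not all, of the markers of its lineage that were looked at. A promoter peak, meaning a peak with any base within 3 kb of an annotated start site of the gene, was present at 5 of 6 CCS and melanocyte markers, against 63.4% of all protein-coding genes. Their widths were 18.04 kb at SOX10, 5.53 kb at PMEL, 3.39 kb at MITF, 1.64 kb at MLANA and 1.01 kb at S100B. Of protein-coding genes with a promoter peak, 99.9%, 97.1%, 90.5%, 51.7% and 20.5% had a narrower one, in the same order. TYR, which encodes tyrosinase, had no peak in its window. None of the 8 markers of other cell types had a promoter peak, the list being EPCAM and CDH1 for epithelium, MYOD1 and MYOG for skeletal muscle, PTPRC and CD3E for leukocytes, and PECAM1 and VWF for endothelium. In their windows, EPCAM, CDH1, PTPRC and PECAM1 had 1 peak each and VWF had 2, while MYOD1, MYOG and CD3E had none.

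The stretch just before the start site is shown for 4 members to set their base composition beside the peaks. RefSeq (GRCh38.p14) promoter entries matched 6 members, with 10 entries in all, and no entry was matched for DUSP4, DUSP5, ETV4 and ETV5. Each sequence below is the 250 bases before a RefSeq start, 5′ to 3′ on the strand of the gene, and held no exon of a protein-coding gene. Of the 10 entries 7 met that condition, and the one at the outermost start is shown for each of 4 members. Capitals mark a match to a motif described below. The windows are DUSP6 at chr12:89352502-89352751 on the minus strand, SPRY1 at chr4:123396545-123396794 on the plus strand, SPRY2 at chr13:80341127-80341376 on the minus strand and SPRED1 at chr15:38252586-38252835 on the plus strand.
DUSP6: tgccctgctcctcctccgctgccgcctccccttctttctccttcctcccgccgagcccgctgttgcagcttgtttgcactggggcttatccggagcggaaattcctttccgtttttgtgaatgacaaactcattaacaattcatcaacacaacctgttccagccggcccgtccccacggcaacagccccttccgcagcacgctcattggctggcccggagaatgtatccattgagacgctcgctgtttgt
SPRY1: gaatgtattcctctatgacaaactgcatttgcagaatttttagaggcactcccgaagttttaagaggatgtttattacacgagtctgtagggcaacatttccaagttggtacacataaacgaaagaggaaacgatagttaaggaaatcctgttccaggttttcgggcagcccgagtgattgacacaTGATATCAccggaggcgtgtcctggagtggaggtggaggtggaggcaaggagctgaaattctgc
SPRY2: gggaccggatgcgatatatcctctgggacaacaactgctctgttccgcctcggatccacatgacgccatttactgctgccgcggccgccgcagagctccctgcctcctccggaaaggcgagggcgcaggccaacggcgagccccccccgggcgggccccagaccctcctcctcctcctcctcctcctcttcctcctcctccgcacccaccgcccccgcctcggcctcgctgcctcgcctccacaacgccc
SPRED1: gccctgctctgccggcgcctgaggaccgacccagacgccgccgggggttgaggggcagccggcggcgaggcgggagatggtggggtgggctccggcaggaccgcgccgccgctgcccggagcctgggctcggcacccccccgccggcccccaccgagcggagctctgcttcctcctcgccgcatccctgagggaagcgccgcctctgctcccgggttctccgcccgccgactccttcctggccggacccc

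The 4 stretches differed in composition and in their overlap with called peaks. SPRED1 had the richest, with 78.4% GC and 30 CpG dinucleotides in 250 bases, followed by SPRY2 with 70.4% GC and 23 CpG and DUSP6 with 57.2% GC and 16 CpG. All 250 bases of each of these 3 stretches lay inside a peak. The SPRY1 stretch had 45.6% GC and 8 CpG, and 0 of its 250 bases lay in a peak, although a peak began 156 bases past the start. The entries not shown did not all follow this order. At inner starts of SPRY2, the stretch at chr13:80340109-80340358 had 62.4% GC, and that at chr13:80339660-80339909 had 41.2% GC and 5 CpG, and all 250 bases of both lay in a peak. At an inner start of SPRED2, chr2:65366779-65367028 had 39.2% GC and 0 bases in a peak. The SPRY1 stretch was the one of the 7 that held a capital match, TGATATCA, a case of the flexible ATF/CREB form.

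AP1 sites inside peaks are shown because AP1, the dimer of FOS and JUN proteins, is itself a nuclear endpoint of MAPK signalling. Those of the Sprouty and SPRED genes are printed, and those of DUSP4 and ETV5 are not. Each sequence is 87 bases of hg38 on the plus strand, with the 7-letter match TGAGTCA in capitals and 40 bases on each side, and all lay within 1 peak and outside exons of protein-coding genes. The SPRY1 site was at chr4:123444351-123444437. Those of SPRY4 were at chr5:142342413-142342499 (a), chr5:142342887-142342973 (b) and chr5:142362894-142362980 (c). The SPRED1 site was at chr15:38253624-38253710, and those of SPRED2 were at chr2:65301081-65301167 (a) and chr2:65430528-65430614 (b).
SPRY1: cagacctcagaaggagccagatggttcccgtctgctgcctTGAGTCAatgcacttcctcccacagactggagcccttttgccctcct
SPRY4 a: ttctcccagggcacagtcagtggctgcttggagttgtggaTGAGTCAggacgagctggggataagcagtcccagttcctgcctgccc
SPRY4 b: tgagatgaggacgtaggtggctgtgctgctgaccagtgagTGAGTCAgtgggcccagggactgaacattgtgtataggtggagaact
SPRY4 c: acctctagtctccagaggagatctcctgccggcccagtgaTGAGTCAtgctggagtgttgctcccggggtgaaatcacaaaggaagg
SPRED1: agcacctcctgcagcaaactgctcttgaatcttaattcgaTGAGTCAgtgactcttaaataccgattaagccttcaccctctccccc
SPRED2 a: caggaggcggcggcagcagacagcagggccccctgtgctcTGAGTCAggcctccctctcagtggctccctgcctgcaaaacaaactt
SPRED2 b: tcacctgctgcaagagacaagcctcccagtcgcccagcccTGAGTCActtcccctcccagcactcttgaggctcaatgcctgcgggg

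Of these 7 sites, 5 lay in distal peaks, meaning peaks beyond 3 kb of every annotated start site, namely those of SPRY1 and SPRY4 and site a of SPRED2. The SPRED1 site and site b of SPRED2 lay in the promoter peaks of their genes, downstream of the start.

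Promoter peaks were counted first, at the starts of the feedback genes. These genes were chosen with earlier results of these data known, so the shares beside all genes describe the set and test nothing. All 10 had at least 1 promoter peak, against 63.4% of protein-coding genes. For 8 of the 10, the peak was among the widest 25% of all peaks, which are those over 1760 bases, against 26.5% of genes. The exceptions were DUSP5 and ETV4. All 10 also had some peak in the body or within 50 kb, a property shared by 83.1% of genes. The median widest promoter peak of the members was 3.485 kb, compared with a median of 1.6 kb over the 12691 protein-coding genes that had one, and 7 of the 10 members exceeded the 90th percentile of 3.3 kb.

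**Figure D1:**
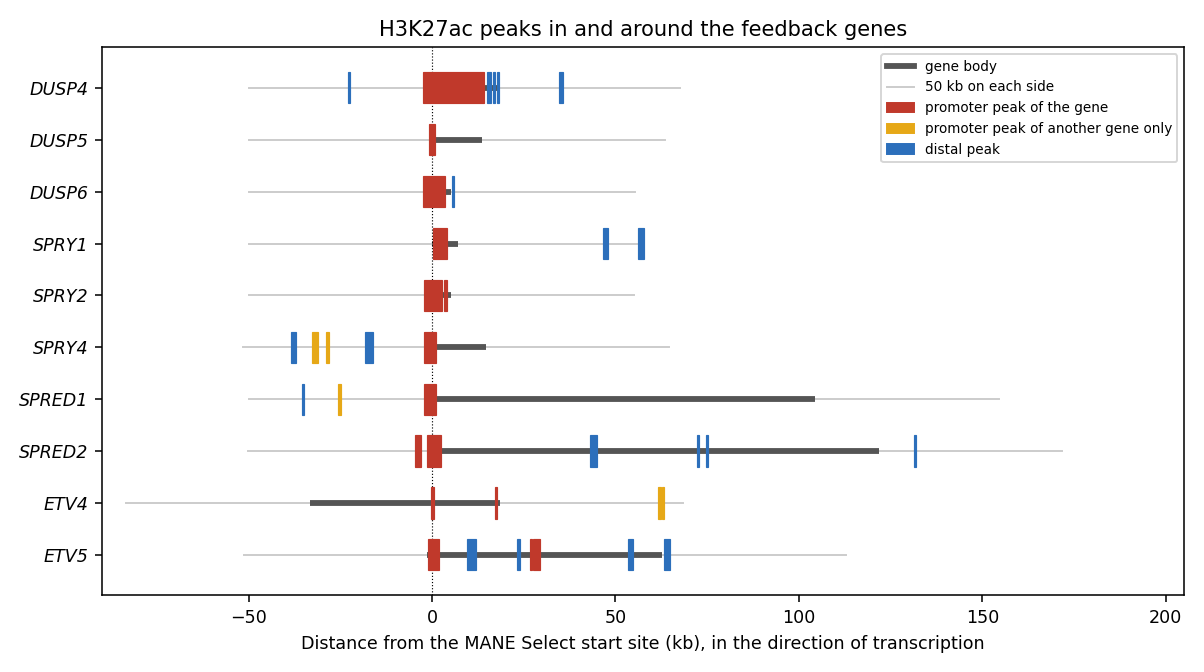
H3K27ac peaks in the windows of the 10 feedback genes. The x axis is distance in kb from the start of the MANE Select transcript, the reference transcript of a gene, in the direction of transcription, each row is a gene, dark lines are gene bodies, thin lines the 50 kb on each side, and coloured boxes are peaks drawn to scale by class. The box over DUSP4 covers most of its body, whereas DUSP5 has 1 narrow box at its start.

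In order of width, the widest promoter peak was 16.56 kb at DUSP4, 5.93 kb at DUSP6, 4.76 kb at SPRY2, 3.86 kb at SPRY1, 3.62 kb at SPRED2, 3.35 kb at SPRED1, 3.34 kb at SPRY4, 2.81 kb at ETV5, 1.43 kb at DUSP5 and 0.61 kb at ETV4. With no replicate values, it is not known which neighbours in this order differ beyond their spread. The members thus spanned nearly the whole range of promoter peaks in these cells, from the 99.9th percentile at DUSP4 to the 5.85th at ETV4.

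**Figure D2:**
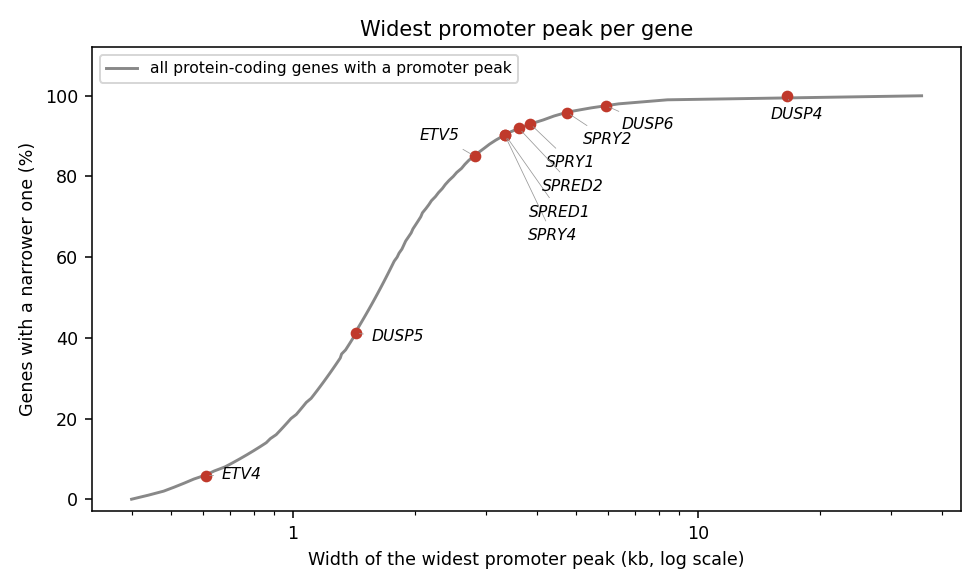
Width of the widest promoter peak of each gene. The x axis is width in kb on a log scale, the y axis the percentage of the 12691 protein-coding genes with a promoter peak whose widest is narrower, the grey line all genes and red points the 10 members. The members from SPRY4 to DUSP4 sit above 90%, ETV5 at 85.1%, DUSP5 at 41.1% and ETV4 at 5.85%.

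The 3 phosphatases spanned the widest and among the narrowest of these peaks. DUSP4, a nuclear phosphatase of ERK, lies on the minus strand at chr8:29333064-29350684 in hg38. Its promoter peak at chr8:29336641-29353200 reached from 2.516 kb upstream of the start to 14.043 kb downstream and touched all 4 exons. It ranked 11th in width among the 12691 genes, where the rank counts from the widest. Of the gene body, 88.9% lay in peaks, as did 100% of the coding bases and both annotated start sites.

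Around it, DUSP4 had 5 distal peaks of 550 to 1070 bases. Those of 1070 and 550 bases lay in exon 4, 1 of 690 bases began just past the gene end, and the other two, of 730 and 950 bases, lay 22.6 kb upstream and 35.2 kb downstream of the start by their midpoints. The upstream one was GC-rich for a distal peak, with 62.2% GC and 3.70 CpG per 100 bases. The summed width in the window was 20.55 kb, which exceeded 95.6% of protein-coding genes.

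DUSP6, the cytoplasmic phosphatase specific for ERK, lies on the minus strand at chr12:89347235-89352501. Its promoter peak at chr12:89349011-89354940 extended 3.49 kb downstream and 2.439 kb upstream of the start and touched all 3 exons. The peak covered all 5 annotated start sites, and 100% of the coding bases and 66.3% of the body lay in peaks. A second peak of 440 bases, at chr12:89346541-89346980, lay 0.255 kb past the gene end. Beyond the window the locus was sparse, with the next peak 717 kb farther on the left and 101 kb farther on the right in genome coordinates.

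DUSP5, another nuclear ERK phosphatase, had 1 peak in a window of 114 kb. The peak, chr10:110497221-110498650, was nearly centred on the start, with 0.743 kb downstream and 0.686 kb upstream, and touched exon 1 alone. It held 32.9% of the coding bases and 5.46% of the body. It was the most CpG-rich of the 39 peaks, with 13.4 CpG per 100 bases and 70.9% GC. The start of DUSP5-DT, a divergent transcript, also lay within 3 kb of this peak, and a peak list cannot assign the mark to either transcript. The same limit applied to the promoter peaks of DUSP4 and DUSP6, each within 3 kb of starts of 2 other annotated genes. It also applied to that of ETV4, within 3 kb of a DHX8 start, and to the widest of SPRED2, within 3 kb of a LINC02934 start. The next peak to the right lay 5.44 kb beyond the DUSP5 window, the one to the left 142 kb beyond.

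The Sprouty genes, whose proteins are adaptors that limit RAS activation downstream of receptors, had promoter peaks of similar width, 3.34 to 4.76 kb, in different surroundings. SPRY2, on the minus strand at chr13:80335976-80341126, had its peak at chr13:80338501-80343260, with 2.625 kb downstream and 2.134 kb upstream of the start. A second peak of 710 bases lay in exon 2 after a gap of 670 bases, and counted as a promoter peak because it began 1.829 kb from the start of a shorter transcript. Together they covered 64.8% of the body and 61.9% of the coding bases. SPRY2 had no distal peak, and the nearest start of another coding gene, NDFIP2, was 860 kb away. Upstream of the gene, the next peak lay 7280 kb beyond the window, and downstream it lay 8.86 kb beyond, so that SPRY2 stood at the border of a long stretch without H3K27ac peaks.

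SPRY1, on the plus strand at chr4:123396795-123403760, differed from the other members in where the called edge of its peak fell. Its MANE Select start lay 156 bases outside the promoter peak at chr4:123396951-123400810. The peak instead covered 4 of 7 annotated start sites, the ones farther downstream, and touched exon 2, and 0% of the coding bases lay in a peak. The other 9 members had the MANE Select start in a peak, against 53.6% of protein-coding genes. This is the gene whose upstream stretch, printed above, held 0 bases of peak. The list gives no spread for a peak edge, so whether an offset of 156 bases exceeds that spread is not known.

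SPRY1 also had distal peaks of 1370 and 1660 bases, at chr4:123443371-123444740 and chr4:123452991-123454650, both downstream of the gene. Their midpoints were 47.3 and 57.0 kb from the start, and the nearest coding gene start to both was that of SPRY1. The AP1 site printed for SPRY1 lay in the former. The latter began 49.2 kb past the gene end, the start closest to the outer edge of any window, and ran beyond that edge. It was counted whole, in width and in motifs. The nearest peak left out by such an edge lay 4.12 kb beyond the window of SPRED1.

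SPRY4, on the minus strand at chr5:142310427-142326455, had its other peaks upstream. The promoter peak, chr5:142323981-142327320, reached 2.299 kb upstream and 1.04 kb downstream, covered 5 of 6 start sites and held 0% of the coding bases. Distal peaks of 2010 bases at chr5:142341161-142343170 and 1500 bases at chr5:142362091-142363590 held the 3 AP1 sites printed for SPRY4. Between them lay peaks of 870 and 1750 bases within 3 kb of starts of SPRY4-AS1, an antisense transcript. The SPRY4 promoter peak was itself within 3 kb of a SPRY4-AS1 start, and the mark cannot be told apart between them. No peak lay between the promoter peak and the window's edge downstream.

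**Figure D3:**
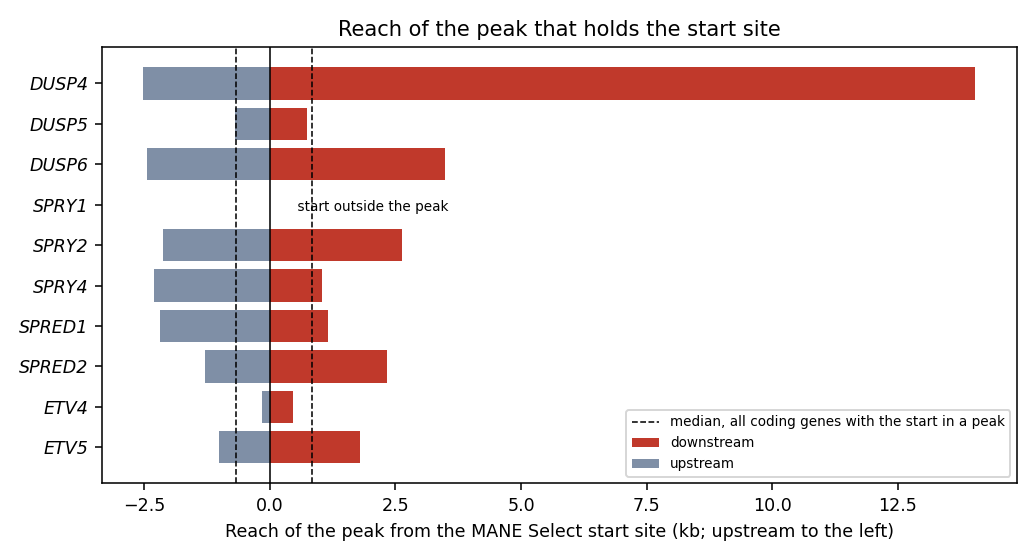
Reach of the peak that holds the MANE Select start site. Bars give the distance in kb from the start to the end of the peak, downstream to the right and upstream to the left, for each member, and dashed lines are the medians over 10730 protein-coding genes with the start in a peak. DUSP4 reaches 14.043 kb downstream, SPRY1 has no bar because its start lies outside the peak, and ETV4 is shorter than both medians.

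Where the start lay in a peak, the mark of most members reached farther on both sides than that of the median gene. The median reach downstream was 1.798 kb over 9 members, against 0.848 kb over 10730 genes, and 7 of the 9 exceeded the latter. Upstream the median was 2.134 kb against 0.667 kb, and 8 of the 9 exceeded it. SPRY4 and SPRED1 had more of the peak upstream than downstream, whereas the other 7 had more of it downstream.

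The SPRED genes encode proteins with an EVH1 domain and a Sprouty domain, and SPRED1 brings neurofibromin, which inactivates RAS, to the membrane. Both genes are long, 104 kb for SPRED1 and 122 kb for SPRED2, and H3K27ac covered 1.11% and 4.41% of their bodies. The SPRED1 peak at chr15:38250641-38253990 reached 2.195 kb upstream and 1.154 kb downstream and covered all 3 start sites. The rest of its 104 kb body held no peak. Upstream, SPRED1 had a peak of 710 bases near the start of the non-coding gene LINC02895 and a distal peak of 550 bases, 35.1 kb from the start by its midpoint.

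SPRED2 had 6 peaks with a summed width of 8.96 kb. Its promoter peak at chr2:65430271-65433890 covered 2 of 8 start sites, and the other 6 starts, all inside the gene, lay 6.38 to 22.5 kb from the nearest peak. A second peak of 1730 bases, upstream, was within 3 kb of both the outer SPRED2 start, at 2.984 kb, and LINC02934, and was the peak closest to the promoter limit. On the other side of that limit, the nearest peak outside was the 440-base peak of DUSP6, at 4.191 kb. Intron 1 of SPRED2 held 3 distal peaks of 1850, 440 and 710 bases, 43.98, 72.55 and 74.99 kb from the start. The last peak, which holds AP1 site a of SPRED2, was nearer to the start of ACTR2 than to the MANE Select start of SPRED2. Its midpoint lay 73.1 kb from the former and 131.7 kb from the latter. An inner SPRED2 start was closer, 33.5 kb from the edge of the peak.

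The PEA3 factors differed from each other. ETV4, on the minus strand at chr17:43527844-43579620, had the narrowest promoter peak of the set, 610 bases at chr17:43545881-43546490, with 0.459 kb downstream and 0.15 kb upstream of the MANE Select start. This peak covered 6 of 11 start sites. The outermost start, 33.1 kb upstream of the peak, had none. A peak of 560 bases in intron 12 was a promoter peak only through the start of a short transcript. The remaining 2 peaks in the window lay at the start of DHX8, which encodes an RNA helicase, and without them ETV4 had no peak outside its body. The ETV4 promoter peak was rich in CpG despite its width, with 8.36 per 100 bases and 66.4% GC.

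ETV5, on the minus strand at chr3:186046314-186110318, had 7 peaks, the most of any member, and a summed width of 12.03 kb. The promoter peak at chr3:186107291-186110100 reached 1.798 kb downstream and 1.011 kb upstream. Intron 5 held peaks of 2600, 840 and 550 bases, and a peak of 2070 bases at chr3:186079591-186081660 touched exons 6 and 7 and covered the start of an internal transcript. The 550- and 2070-base peaks were also within 3 kb of a start of ETV5-AS1. Farther on, a peak of 1410 bases lay in intron 11 and 1 of 1750 bases 0.384 kb past the gene end. In ETV5, 16.1% of the body lay in peaks, as against 2.26% in ETV4.

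Neighbouring peaks were then stitched into regions at the distance that the study used, and the regions were ranked by summed peak width. Of 17049 regions, 879 lay past the point where the scaled curve reaches a slope of 1, and 7.58% of coding genes had such a region over the body. Among the members these were DUSP4 and ETV5, 2 of 10. The DUSP4 region joined 4 peaks with 18.87 kb of peak in 20.9 kb and ranked 168th. The ETV5 region joined 5 peaks, with 8.87 kb of peak in a span of 30.51 kb, and ranked 746th. The limit was 7.97 kb, so ETV5 was just inside it, and the next member, DUSP6, had 6.37 kb at rank 1273. With stitching at 5 kb, or when near-start peaks (those lying wholly within 2.5 kb of a start) were left out, ETV5 no longer passed and DUSP4 alone did.

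By class, 15 of the 39 peaks were promoter peaks of their member, 5 were promoter peaks of another gene only and 19 were distal. Promoter peaks of a member thus made up 38.5% of the peaks in these windows, compared with 25.8% over the windows of all protein-coding genes. Windows of neighbouring genes overlap, so the latter share counts a peak again in every window that holds it. Among the members, only the ETV4 window held the start of another coding gene. The effect of such spacing on the share was not tested. The 19 distal peaks comprised 8 in a gene body, 7 downstream and 4 upstream, and belonged to 7 members. DUSP5, SPRY2 and ETV4 had none. The median width was 2810 bases for the promoter peaks of members, 830 for those of another gene only and 950 for the distal peaks. By MANE Select starts, 36 of all 39 had the member's start as the nearest coding gene start, in windows that mostly held no other. Over all protein-coding genes the median was 1 such peak per window, against 3 peaks of any class.

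The number of peaks was close to that of other genes. Members had a median of 3.5 peaks in the window, against 3 over all protein-coding genes, and 5 of 10 exceeded the latter. Their summed width had a median of 6.63 kb against 3.34 kb, with 8 of 10 above. Peaks covered a median of 15.8% of the members' bodies against 1.45% over all coding genes, although the members were also shorter, with a median length of 16.8 kb against 27.5 kb.

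**Figure D4:**
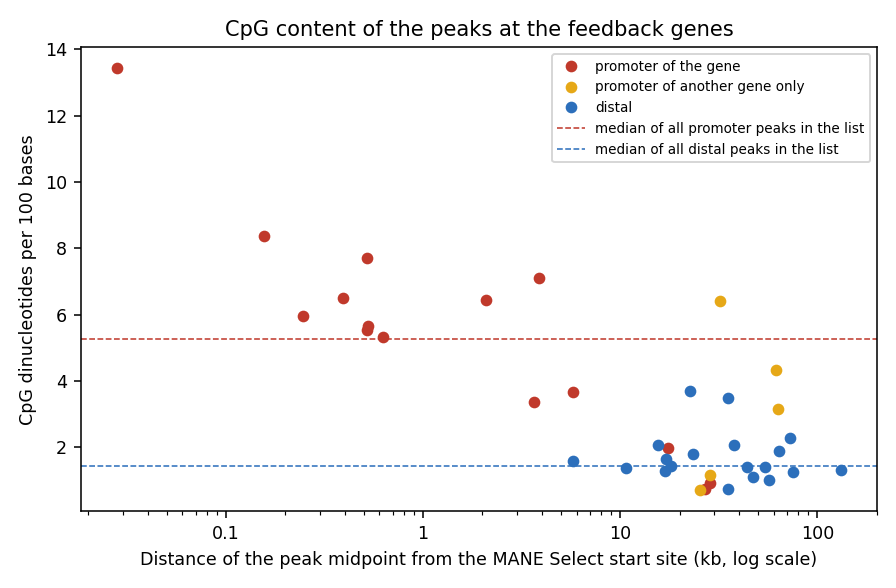
CpG content of the 39 peaks by distance from the start. The x axis is the distance in kb between the peak midpoint and the MANE Select start on a log scale, the y axis CpG dinucleotides per 100 bases, colours give the peak class, and dashed lines are the medians of all promoter peaks and all distal peaks in the list. Points near starts are mostly above 5, and distal points lie between 0.727 and 3.70.

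CpG content was higher near start sites than in distal peaks by median, but the ranges overlapped. They were 0.704 to 13.4 per 100 bases near start sites and 0.727 to 3.70 in distal peaks. The 20 peaks near any start site had a median of 5.44 CpG per 100 bases, and the 19 distal peaks 1.45. Both were close to the medians of all promoter peaks, 5.27 over 18842, and of all distal peaks, 1.45 over 11942. The peaks counted as promoter peaks of ETV4 and ETV5 only through internal transcripts had the composition of distal peaks, with 1.96 for the peak in intron 12 of ETV4 and 0.727 and 0.918 for the 550- and 2070-base peaks of ETV5.

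Motifs were searched on both strands in the whole peaks, as letters alone. In binding sites of the fusion protein, not in H3K27ac peaks, the study examined the ATF/CREB site (TGACGTCA) and the AP1 site (TGAGTCA). It also examined a flexible ATF/CREB form with any 2 central bases (TGANNTCA), from which it left out TGACGTCA when counting sites. The flexible form counted here includes the ATF/CREB site but not the AP1 site. The study reported AP1 as recurrent in mouse tumours, but did not find it so in the human CCS lines, SU-CCS-1 among them. Repeats of TGA or TCA were a further motif of the study, counted here as over 4 triplets that lie at most 5 bases apart. CCGGAAGT, an ETS site, was added because ETV4 and ETV5 are ETS factors. The ATF/CREB site was in 0 of the 39 peaks, against 2.58% of all peaks. The ETS letters were also in 0, against 5.03%.

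The flexible form was found in 18 of 39 peaks, 46.2%, against 40.8% of all peaks. Per length it was less frequent, with 369 matches per Mb against 466 per Mb in all peaks. By class, this held near start sites, with 264 per Mb against 386 per Mb, whereas distal peaks had 644 per Mb against 642 per Mb. The AP1 letters were in 11 of 39, 28.2%, against 16.8%, or 178 per Mb against 150 per Mb. In the distal peaks alone, AP1 was in 6 of 19, 31.6%, against 17.5%, or 322 matches per Mb against 187 per Mb in all distal peaks. In the 20 peaks near start sites it was in 5, 25%, against 16.5% of all such peaks, or 123 per Mb against 134 per Mb. The repeats were in 5 of 39 peaks, 12.8%, against 6.74%, or 63.7 per Mb against 52.7 per Mb. They belonged to DUSP4, DUSP6, SPRY1, SPRY4 and ETV5 with 1 each. With 500 bases added to each side of the peaks, the repeats were in 15.4% of the members' peaks and 14.7% of all peaks.

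Of 14 AP1 matches in all, DUSP4 had 5, SPRY4 had 3, SPRED2 and ETV5 had 2 each, and SPRY1 and SPRED1 had 1 each. DUSP5, DUSP6, SPRY2 and ETV4 had none inside a peak. At DUSP4, 3 of the 5 lay within the 16.56 kb promoter peak. The count moved with the stretch searched, to 3 peaks in the central 400 bases, where the share over all peaks was 5.31%, and to 17 with 500 bases added on each side, where it was 29.9%. These are counts of letters in 1 genome and do not show that a factor was bound.

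Short gaps between neighbouring peaks, where no peak was called, were searched as well. Of 6341 gaps of 50 to 1000 bases in the list, 5 lay between peaks of the same member. The 670-base gap within SPRY2 held an AP1 match, against 9.90% of all such gaps. The gap of 290 bases between the peaks at DHX8, in the ETV4 window, held the ETS letters, against 0.899% of gaps. In the 10 RefSeq promoter entries of 300 bases, 1 of SPRY1 held the flexible form, against 11.5% of 35116 entries, and 1 of SPRED2, outside any peak, held AP1, against 4.95%.

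Most other genes of the pathway also had a promoter peak, with a narrower median width in the core cascade than in the other lists. Among 10 family relatives, 8 had a promoter peak, with a median widest peak of 3.595 kb, and 7 were among the widest 25%, beside background shares of 63.4% and 26.5% of protein-coding genes. DUSP2, a nuclear MAPK phosphatase, had 6.84 kb, DUSP7 5.65 kb, DUSP16 4.34 kb and DUSP10 3.96 kb. DUSP9 and SPRED3 had no promoter peak, SPRY3 had one of 1.14 kb and ETV1, the third PEA3 factor, one of 1.78 kb.

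Among 25 genes of the core cascade, from adaptors to RSK kinases, 24 had a promoter peak and KSR2, a scaffold, had none. Their median widest peak was 1.8 kb, and 13 of the 25 were among the widest 25%. The widest promoter peak was 3.12 kb at HRAS and 1.16 kb at NRAS, and 1.78 kb at ARAF and 1.62 kb at BRAF. Among the MEK and ERK kinases, MAP2K1 had 1.68 kb, MAP2K2 2.86 kb and MAPK3 2.44 kb. The adaptor gene SHC1 had the widest, 6.68 kb, and NF1, which encodes neurofibromin, had 1.41 kb.

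All 6 other genes that ERK signalling is known to induce had a promoter peak, with a median of 2.135 kb, and 3 were among the widest 25%. CCND1, which encodes cyclin D1, had 11.34 kb, PHLDA1 6.21 kb and the ephrin receptor gene EPHA4 2.6 kb. EPHA2 had 1.67 kb, IER3 1.64 kb and FOSL1, an AP1 subunit, 1.24 kb. The differences between lists were not tested, since the genes share 1 peak list. The genes were chosen by name, with earlier results of these data known.

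**Figure D5:**
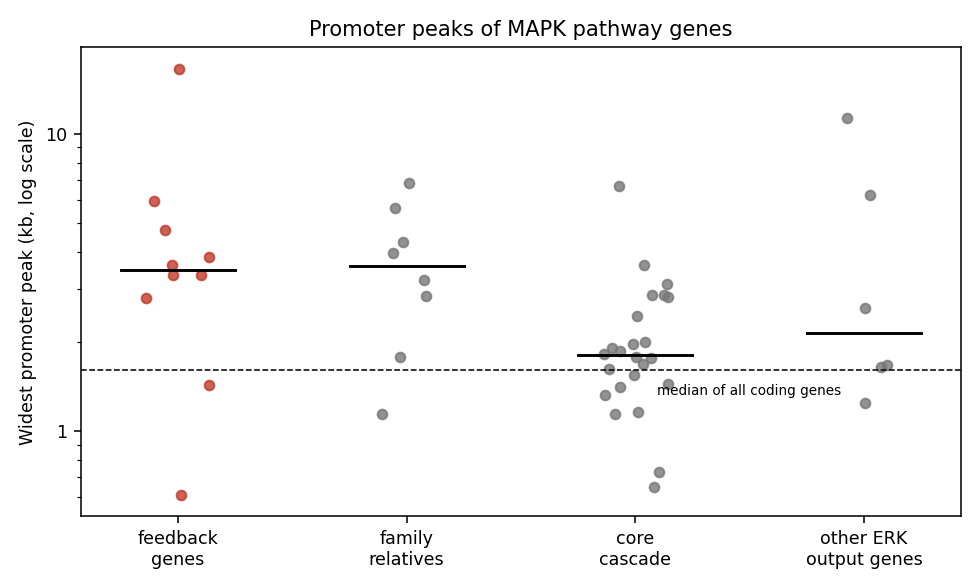
Widest promoter peak of each gene in 4 lists of MAPK pathway genes. The y axis is width in kb on a log scale, points are genes with a promoter peak (red for the feedback genes), solid lines are list medians, and the dashed line is the median of 1.6 kb over all protein-coding genes with one. List medians are 3.485 kb for the feedback genes, 3.595 kb for family relatives, 1.8 kb for the core cascade and 2.135 kb for other ERK output genes.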

How the data were processed

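ChIP-seq for H3K27ac and input was performed on SU-CCS-1 cells (3 samples each, grouped by their titles). Per the study's methods, reads were aligned by the authors with BWA-MEM (0.7.10-r789) to hg38, and duplicates were removed. They called broad peaks with MACS2 (2.2.6) over input at a p-value cutoff of 1e-10 and removed ENCODE denylisted regions. They deposited 1 list of peak positions (chromosome, start, end and name). How replicates were merged for this peak list is not given in the sources used here. The list holds no counts, so the depth behind a peak is unknown, and broad peak width depends on depth and cutoff.

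Peaks were assigned to GENCODE version 44 genes, counted from 1, with genes shared by X and Y counted once. Promoter peaks lay within 3 kb of any transcript start. Percentiles are among 20015 protein-coding genes, or those with the measure. Peaks were stitched within 12.5 kb. Motifs were matched as exact letters on both strands of hg38. Python 3.11.15, pandas 2.3.3, numpy 2.4.6, pysam 0.24.0 and matplotlib 3.10.9 were used, and the functions were tested on simulated peaks and sequences. No test was made, as 1 list holds no replicates. Named genes were the 10 members, the genes of the lists and genes sharing a member's window. The members and lists were chosen with earlier results of these data known. Alternatives varied the promoter window, gene window, stitching distance, peak width and searched stretch. Values of some genes of the core cascade are not reported here.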

Additional observations from a re-analysis of the deposited data

How the results depend on the processing

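In all, 36 alternatives were computed for 13 results, and 24 stayed within 1.5 times of the reported count, or of the reported width or share. This compared the members' values alone, not their contrast with all genes or all peaks. The repeats with 500 bases added stayed within it, yet their share went from 12.8% against 6.74% of all peaks to 15.4% against 14.7%. The number of members with a promoter peak was 10 with a 1 kb window or protein-coding transcripts alone, 9 with the widest 50% of peaks (without ETV4), 8 with the widest 25% (without DUSP5 and ETV4), and 9 by peak midpoint (without DUSP4, whose midpoint lay 5.76 kb from the start). The 39 peaks became 22 with gene bodies alone and 21 with the widest 50% of peaks. Members past the slope-1 point fell from 2 to 1 with 5 kb stitching and to 1 with near-start peaks left out. Peaks with the flexible ATF/CREB form went from 18 to 7 in the central 400 bases and 28 with 500 bases added, while the share over all peaks went from 40.8% to 16.6% and 63.3%. AP1 went from 11 to 3 and 17 (all peaks 16.8%, 5.31% and 29.9%). Repeats of TGA or TCA went from 5 to 1 in the central 400 bases (all peaks 6.74% and 1.85%) and were in 6 with 500 bases added (14.7%). ETS went from 0 to 2 with 500 bases added (5.03% and 6.27%). These moves follow from shorter or longer sequence being searched. With the widest 25% of peaks, the core cascade went from 24 to 13 of 25 genes and the other ERK output genes from 6 to 3 of 6, while the share over all genes went from 63.4% to 26.5%. No paired analysis was possible because the list has no column for any replicate. The depth per sample and the spread between replicates limit every width given, and neither could be measured from the list.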
